A study of Gallus gallus with 88 samples.

Results

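The breast muscle of market-age broilers was compared between birds that had been warmed early and birds that had been warmed later in embryonic life. The comparison used the 16 of 88 arrays whose titles mark mature breast muscle and the warm treatment: 8 of birds kept at 38.8 °C on embryonic days (ED) 7 to 10 and 8 of birds kept at 38.8 °C on ED 10 to 13. All eggs were broiler eggs held at 37.8 °C outside their interval, and after hatch the chickens were reared in a barn with free access to a standard diet. Musculus pectoralis major was sampled at day 35 after hatch, and RNA of individual tissue samples was hybridised, 1 array per sample. The whole series also holds day 35 muscle of 8 controls kept at 37.8 °C and of 8 and 8 birds cooled to 36.8 °C on the same intervals. Controls 30 and 90 are labelled with ED 7 to 10 and the other controls with ED 10 to 13, and they are pooled here unless stated. A further 48 arrays hold embryonic muscle taken on ED 10 or ED 13. The labels name no genotype and no sex. Signals were the normalised log2 values of the authors, so a log2 difference of 1 is a doubling, and every difference below is the earlier interval minus the later one unless another is named.

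The pectoralis major of the chicken is a flight muscle built almost wholly of fast glycolytic fibres, and its bulk is what broilers have been bred for. Fibre number is set before hatch, as successive waves of embryonic and then fetal myoblasts fuse into myotubes, and afterwards growth comes from enlargement of those fibres and from fusion of satellite cells. Incubation temperature was varied while the muscle was forming, and the comparison asks whether the interval of warming leaves a different mature muscle.

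The tissue label held in both groups. The fast skeletal muscle genes were at the top of the signal range: ACTA1, skeletal actin, averaged 14.25 ± 0.052 (SD, n = 8) after early warming and 14.27 ± 0.022 after later warming, and TNNT3, fast troponin T, averaged 13.21 ± 0.14 and 13.28 ± 0.091. The fast adult myosin MYH1E spanned 13.06 to 13.39 after early warming and 13.11 to 13.45 after later warming. Array 11 of the early group stood apart from the other 15. It had 873 probe sets at a signal of 0, against 258 to 476 on the others, and its median correlation with the other day 35 arrays was 0.901. A second division ran through both groups. The mean of 18 probe sets on chromosome W, which only hens carry, was 6.18 or more on 4 arrays of each warm group and 3.47 or less on the other 4. The high-W arrays of the early group were numbers 3, 11, 13 and 15 and the low-W arrays were 66, 67, 72 and 74, which are also the arrays listed before and after the later group. In the later group the high-W arrays, 31, 34, 39 and 43, likewise stand before the low-W arrays, 50, 53, 58 and 60. W class and place in the listing therefore cannot be told apart within either warm group. Between the W classes of the warm birds limma called 376 probe sets (1.82%). The 18 probe sets that define the classes were among those tested, so part of this count follows from the split. How many of the calls lie on chromosomes W and Z is not given here. All 16 warm arrays belong to the first of 2 listing blocks of day 35 samples and all 16 cool arrays to the second, while 4 controls stand in each. The controls of the 2 blocks differed: limma called 34 probe sets (0.164%) between the 4 and 4. AMBP, a plasma protein gene, was 1.26 to 3.01 on the first 4 controls, 5.92 to 9.52 on the other 4 and 5.25 to 9.61 on the cool arrays. The controls labelled with the earlier interval stand only in the first block, so block and interval label overlap between the controls and were not separated. Both warm groups lie in the same block, so their contrast does not cross it.

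Of 20706 probe sets, 1 passed limma's test at an adjusted p of 0.05 (0.00483%), and it was BG8, which was lower after early warming. None was higher. At an unadjusted p below 0.05 there were 1014 probe sets (4.9%), of which 283 (1.37%) were higher and 731 (3.53%) lower, and after quantile normalisation that split was 373 higher against 395 lower. No probe set (0%) had its 8 early arrays all on one side of its 8 later arrays. The 95% interval of the difference lay within ±1 on the log2 scale for 84.0% of probe sets and within ±0.5 for 54%, so a doubling lay outside the interval for most probe sets.

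BG8 belongs to the B-G family of the chicken major histocompatibility complex, cell-surface proteins of the immunoglobulin superfamily related to butyrophilins, which sits on chromosome 16 in the GRCg7b assembly. The early arrays read 2.30 (array 3), 0 (11), 0 (13), 1.34 (15), 0 (66), 3.73 (67), 0 (72) and 1.95 (74). The later arrays read 2.91 (31), 5.23 (34), 5.07 (39), 3.99 (43), 5.08 (50), 4.30 (53), 3.58 (58) and 4.21 (60). The groups overlapped through array 67 alone, and 7 of the 8 early arrays lay below the lowest later array. The log2 difference was -3.13 ± 0.54 (SE; limma adjusted p = 0.0205), between means of 1.17 ± 1.41 (SD, n = 8) and 4.30 ± 0.81. Controls lay between, at 3.25 ± 1.19, which is -2.09 for early warming minus control and 1.05 for later warming minus control, and neither passed the test. Against the 4 controls of the warm block alone, which averaged 2.71 ± 0.97 (SD, n = 4), these were -1.54 ± 0.65 and 1.59 ± 0.65 (SE), and neither passed limma's test. In birds cooled to 36.8 °C the same contrast gave 0.095 ± 0.54, and the difference between the warm and cool interval effects was -3.23 with an adjusted p of 0.562. At the end of treatment the embryos kept at 38.8 °C differed from those at 37.8 °C by 0.29 ± 0.29 on ED 10 and by 0.20 ± 0.29 on ED 13.

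The BG8 call rested on signals at the bottom of the range. With values below 3 raised to 3 the difference was -1.22 (adjusted p = 0.737), and with only the 16 warm arrays in the fit its adjusted p was 0.543. Leaving out any 1 of arrays 11, 13, 66 and 72 of the early group or 34, 39, 50 and 53 of the later group took the adjusted p to between 0.0528 and 0.0968. The difference was similar within each W class, at -3.39 on the high-W arrays and -2.87 on the low-W arrays, with adjusted p of 0.250 and 1. B-G genes are close copies of each other, so the probe set may read more than 1 of them. BG1, the other B-G gene with a probe set of its own, differed by 0.39 ± 0.55, and none of the 25 other named genes on chromosome 16 passed. Among these, BF2, a classical class I gene, spanned 6.67 to 10.74 in the early group and 5.44 to 10.40 in the later one, and the peptide transporter subunits TAP1 and TAP2 differed by -0.14 ± 0.17 and 0.27 ± 0.18.

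**Figure D1:**
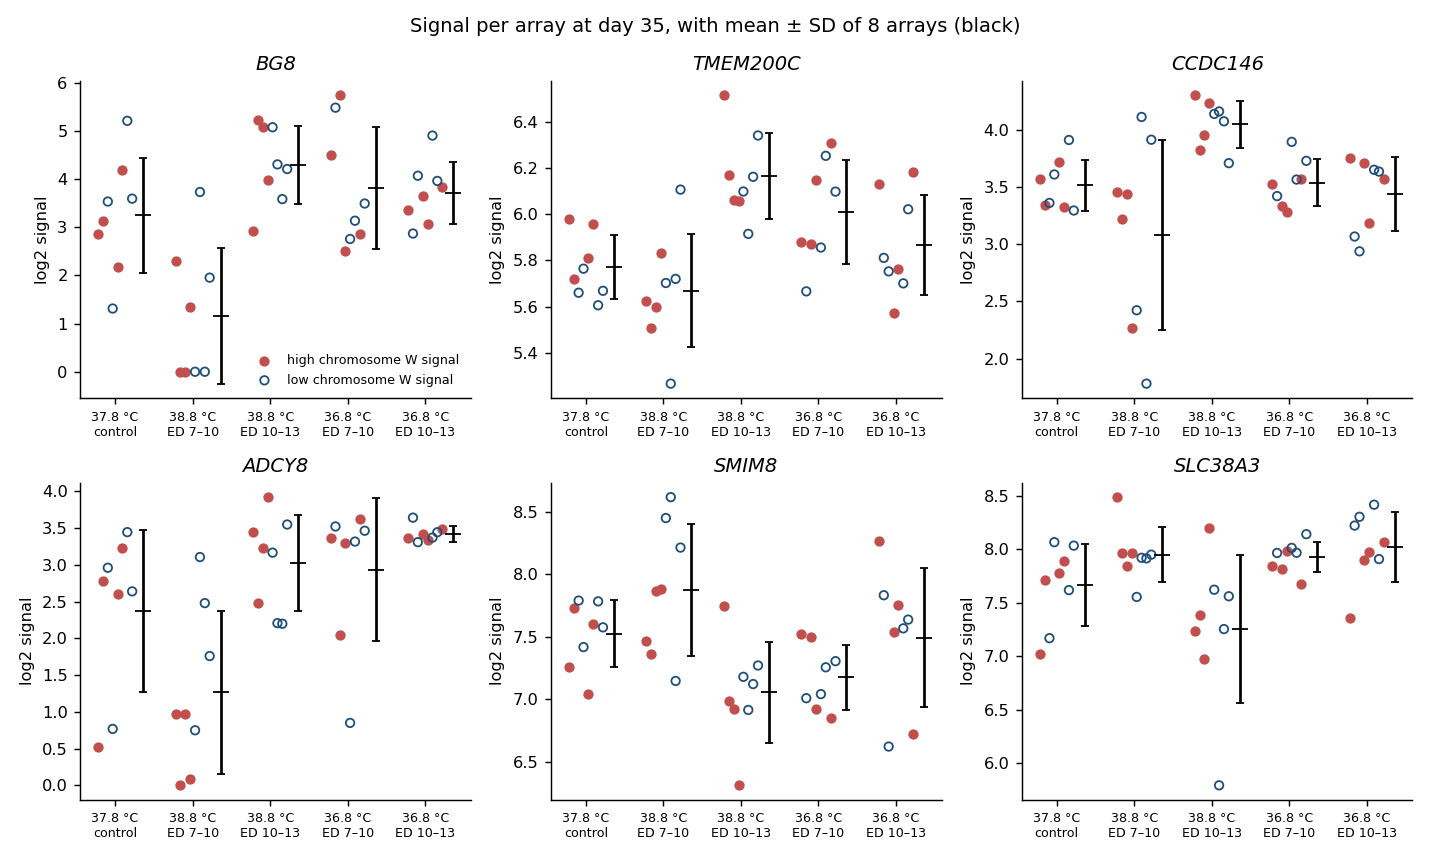
Log2 signal (y axis) of 6 genes on each day 35 array, by group (x axis); filled points are arrays with high and open points arrays with low chromosome W signal, and black bars are mean ± SD of 8 arrays. BG8 is at 0 on 4 early-warmed arrays, and for each of the 6 genes the early-warmed and later-warmed points overlap.

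The 20 genes of smallest p are given as values, since 19 of them did not pass (adjusted p from 0.253 to 0.615). Of the 20, 15 were lower and 5 higher after early warming, 11 averaged below 5 on the log2 scale, and for 18 the control mean lay between the warm means, as did the mean of the 4 controls of the warm block for 16. All 20 kept their sign in both W classes, and 8 had the same sign between the cool intervals. The 20, BG8 included, were chosen by the contrast over these same warm arrays. Their signs in the W classes and the place of the controls therefore largely follow from the choice and test nothing.

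The 15 genes with lower values have varied known roles. CCDC146, a centriole and cilium protein, spanned 1.78 to 4.11 (median 3.33) after early warming and 3.71 to 4.30 (median 4.10) after later warming, so 6 of 8 early arrays lay below every later array. Its difference was -0.97 ± 0.21 (limma adjusted p = 0.253). BBOF1, which orients ciliary basal bodies in frog embryos, differed by -1.0 ± 0.22, with array 11 far below the rest at 1.13. RSPH14, a radial spoke protein of motile cilia, differed by -0.65 ± 0.18. ASTN2, an astrotactin that acts in neuronal migration, differed by -0.86 ± 0.23, and RPH3A, a synaptic vesicle protein, by -0.39 ± 0.11. VSX1, a homeobox factor of retinal interneurons, spanned 1.37 to 3.95 (median 3.24) and 3.50 to 4.35 (median 4.11), a difference of -1.01 ± 0.27.

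ADCY8, a calcium-stimulated adenylyl cyclase, spanned 0 to 3.11 (median 0.97) on the early arrays and 2.20 to 3.92 (median 3.20) on the later ones, and its difference was -1.76 ± 0.43 (adjusted p = 0.50). All 4 high-W early arrays were at 0.97 or below, and array 67 again was the highest of its group. The difference was -2.76 on the high-W arrays and -0.76 on the low-W arrays. GLIS1, a zinc-finger transcription factor, spanned 2.47 to 4.84 against 4.46 to 5.06 and differed by -0.82 ± 0.23, with -1.32 and -0.31 in the high-W and low-W classes. DDC, the decarboxylase that makes dopamine and serotonin, differed by -0.62 ± 0.19, and its lowest early array was number 11 at 3.46, far from the group's median of 5.42.

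TMEM200C, a transmembrane protein gene, was measured well above the floor. Its early arrays spanned 5.27 to 6.11 (median 5.66) and its later arrays 5.91 to 6.51 (median 6.13), with 7 of 8 early arrays below every later one. The difference was -0.50 ± 0.11 (adjusted p = 0.253). MMP1, the interstitial collagenase, spanned 5.10 to 6.12 against 5.97 to 6.51, a difference of -0.46 ± 0.12. The protease genes CTSEAL, a cathepsin E-like gene, and PGA3, a pepsinogen, differed by -0.83 ± 0.23 and -0.43 ± 0.12.

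The 5 genes with higher values after early warming were brighter on the whole. SMIM8, a small membrane protein gene, spanned 7.15 to 8.62 (median 7.87) after early and 6.31 to 7.75 (median 7.05) after later warming, and 5 of 8 early arrays lay above every later one. Its difference was 0.82 ± 0.21 (adjusted p = 0.504), while the cool intervals differed by -0.32 ± 0.21. SLC38A3, a glutamine transporter, spanned 7.55 to 8.49 against 5.79 to 8.20 and differed by 0.70 ± 0.20. UTS2, which encodes the vasoactive peptide urotensin II, kept within 4.16 to 4.61 on the early arrays against 2.99 to 4.47 on the later ones, a difference of 0.57 ± 0.16.

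Probe sets of 3 microRNA genes were among the 20. MIR1416, which lies on chromosome Z, averaged 5.52 ± 0.17 (SD, n = 8) and 5.14 ± 0.29, a difference of 0.38 ± 0.11. It was 0.20 on high-W and 0.56 on low-W arrays, and the cool intervals differed the other way, by -0.23 ± 0.11. The W classes of the embryo arrays are not given here. On the embryo arrays the same probe set had the smallest p of the ED 10 contrast of 38.8 °C against 37.8 °C, 0.45 ± 0.091 higher without passing (adjusted p = 0.218), and differed by 0.12 ± 0.091 on ED 13. MIR1773 spanned 8.98 to 9.85 against 8.12 to 9.57, a difference of 0.71 ± 0.21. MIR222 was near the floor, with 4 early arrays at 0 and a difference of -1.32 ± 0.39. These probe sets name the gene, and whether they read the precursor or the mature RNA is not given in the sources used here.

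Differences had a mean direction that depended on signal. Probe sets below 4 on the log2 scale had a median difference of -0.12 and those of 4 to 5 of -0.13, against 0.033 for those above 8. Without array 11 the same medians were -0.057, -0.072 and 0.046. In the bin of 4 to 5, 221 probe sets were lower and 28 higher at an unadjusted p below 0.05, and 136 and 36 without array 11. The bin of 5 to 6 had a median of -0.075, with 172 lower and 32 higher, and 132 and 41 without array 11. It holds TMEM200C, PGA3 and DDC, which were lower, and MIR1416, which was higher. Most genes below 5 among the 20 share the downward direction, UTS2 being the exception. How much of the differences of genes in these bins it carries was not tested.

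**Figure D2:**
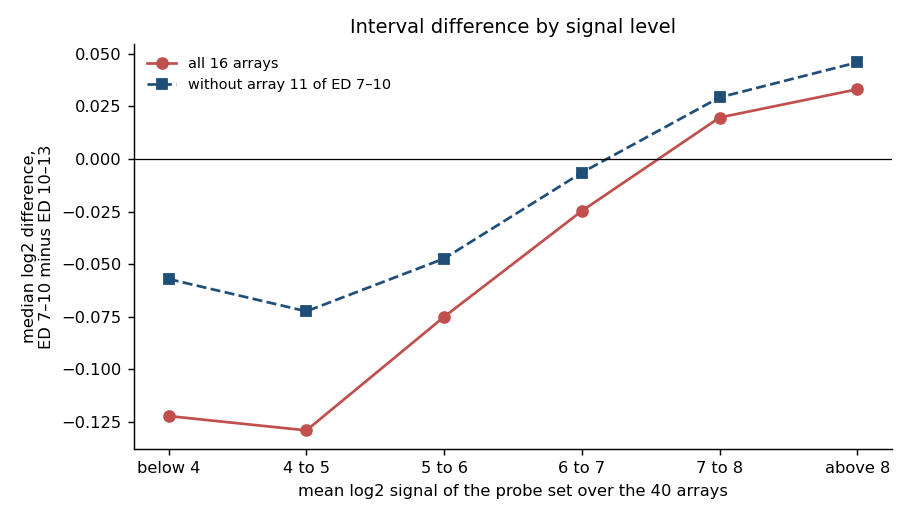
Median log2 difference between the early and later warm interval (y axis) over probe sets grouped by mean log2 signal (x axis), with all 16 arrays and without array 11. Both lines are below 0 for dim and above 0 for bright probe sets, and the line without array 11 lies nearer 0 among dim probe sets.

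Sarcomere genes showed large differences between single birds and no called difference between the intervals. Among 18 measured fast-twitch and common sarcomere genes none was called by limma, and 1 was lower at an unadjusted p below 0.05 and none higher. Of the 18, 4 were above 0 (median -0.051). Of all 11528 named genes 50% were above 0 (median -0.00012), and 471, or 4.09%, had an unadjusted p below 0.05. Among the 3609 genes with a mean above 8, 65.6% were above 0 (median 0.037). Without array 11, 8 of the 18 were above 0 (median -0.0046), and the median of the genes above 8 was 0.051. The 1 gene lower at an unadjusted p below 0.05 was MYH1A, a fast myosin heavy chain. Its early arrays read 10.13 (3), 10.65 (11), 9.84 (13), 12.41 (15), 13.12 (66), 12.70 (67), 11.32 (72) and 12.04 (74), against 11.76 to 13.29 (median 12.77) on the later arrays. Arrays 3, 11, 13 and 72 lay below every later array and the other 4 lay among them. The difference was -1.06 ± 0.38 (limma adjusted p = 0.840), and it was -1.67 on the high-W and -0.45 on the low-W arrays.

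The same 3 arrays, 3, 11 and 13, were the lowest of the 16 for MYH1C, a neighbouring fast myosin, at 9.77, 9.56 and 9.85. They were followed by array 43 of the later group at 9.88, and the highest was array 60 of the later group at 13.05. MYBPC1, slow myosin-binding protein C, was at 8.23 and 8.68 on arrays 3 and 13 and reached 12.80 on array 66 and 12.32 on array 39. MYH1C and MYBPC1 differed between the intervals by -0.58 ± 0.50 and -0.24 ± 0.56. MYH1D, another fast myosin of the cluster, spanned 9.81 to 12.54 against 8.51 to 11.55, with a difference of 0.84 ± 0.43 (adjusted p = 0.999). MYH1B overlapped fully, at 8.14 to 10.45 and 7.99 to 11.14.

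Some slow-fibre genes were high on single arrays while others were even. MYH7, slow myosin heavy chain, kept within 6.47 to 7.15 after early and 6.39 to 7.12 after later warming, and TNNC1, slow troponin C, was high throughout, at 12.25 to 12.94 and 11.95 to 12.66. MYL3, the slow and ventricular myosin light chain, was above 10 on 3 early arrays, 10.12 on array 11, 13.31 on array 67 and 10.92 on array 74, and on 1 later array, 13.22 on array 60. On the remaining 12 arrays it lay between 5.67 and 6.95. MB, myoglobin, was highest on array 60 at 10.42 and ranged from 5.66 to 7.88 in the early group. MYH1G, of the fast myosin cluster, reached 14.28 on array 67 and no more than 11.12 elsewhere in the 16, and the muscle LIM protein gene CSRP3 reached 10.46 on that array against a lowest value of 2.86 on array 13. TNNI1, slow troponin I, differed by 0.48 ± 0.27, with array 11 highest at 8.39. Of 20 measured slow, cardiac and embryonic sarcomere genes 7 were above 0 (median -0.096, and 0.00067 without array 11), none was called, and 1, the stress-responsive repeat protein gene ANKRD1, was lower at an unadjusted p below 0.05 (-0.63 ± 0.28).

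**Figure D3:**
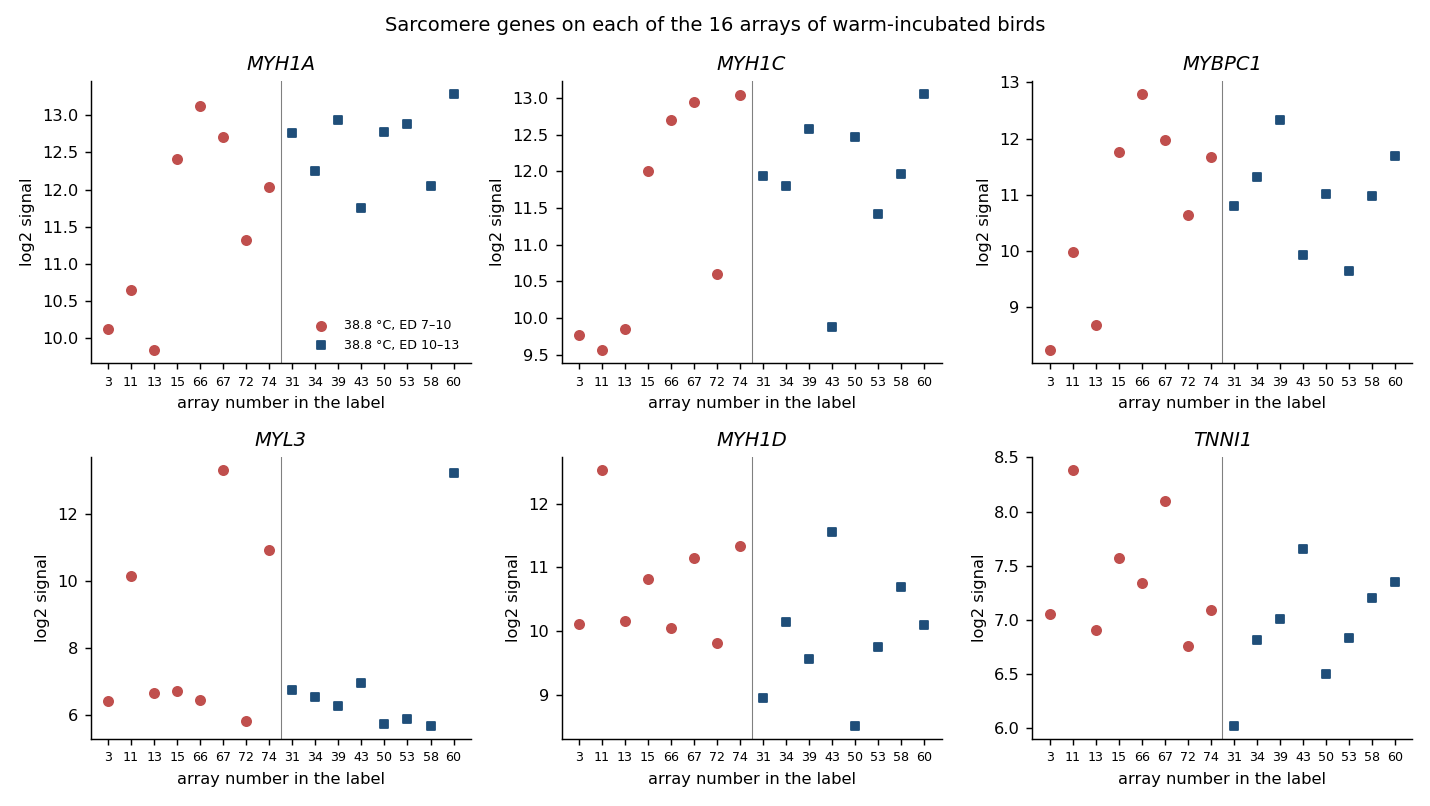
Log2 signal (y axis) of 6 sarcomere genes on the 8 early-warmed (circles) and 8 later-warmed arrays (squares), with the array number of the label on the x axis. Arrays 3, 11 and 13 are low for MYH1A and MYH1C, and MYL3 is above 10 on arrays 11, 67, 74 and 60.

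Genes that run myogenesis were measured well and did not pass. Of 18 genes of myogenic regulation and satellite cells 12 were above 0 (median 0.029), with 1 higher and 1 lower at an unadjusted p below 0.05. Without array 11, 10 of the 18 were above 0 (median 0.0060). On high-W arrays 13 of the 18 were below 0 (median -0.093) and on low-W arrays 15 were above 0 (median 0.15). Of all named genes 47.1% were above 0 on high-W and 52.3% on low-W arrays. MYOG, the factor of terminal myoblast differentiation, differed by 0.26 ± 0.13, and PAX3, a factor of muscle progenitors, by -0.33 ± 0.14. PAX7, the satellite cell factor, differed by 0.027 ± 0.097 (8.21 ± 0.22 and 8.18 ± 0.12), and MYOD1, the myoblast determination factor, by 0.013 ± 0.15.

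Growth control genes gave no call either. MSTN, myostatin, a brake on muscle mass, spanned 9.59 to 11.45 after early and 9.68 to 11.53 after later warming and differed by -0.25 ± 0.32. IGF1, the growth factor that promotes fibre growth, differed by -0.31 ± 0.26, with 5 of 8 early arrays below every later one. ACVR2B, a receptor for myostatin, differed by 0.32 ± 0.17. The thyroid hormone deiodinases DIO2 and DIO3 differed by -0.16 ± 0.22 and -0.076 ± 0.26, and the receptors THRA and THRB by 0.16 ± 0.14 and -0.045 ± 0.27. Of the 16 measured members of this list none had an unadjusted p below 0.05.

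Chaperones and temperature-responsive genes differed little. Of 25 heat shock and chaperone genes 14 were above 0 (median 0.018) and none had an unadjusted p below 0.05. HSPA8, the constitutive Hsp70, averaged 11.43 ± 0.28 (SD, n = 8) and 11.44 ± 0.23, and HSPA2, another Hsp70, differed by -0.20 ± 0.15. The small chaperone HSPB1 differed by 0.050 ± 0.18, and RBM3, a cold-inducible RNA-binding protein, by 0.00070 ± 0.17. CIRBP, HSP90AA1 and HSP25 were not analysed here.

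Respiratory genes lay mostly above 0, and none was called. Of 36 measured respiratory chain and citrate cycle genes 31 were above 0, with a median of 0.085, while 65.6% of the 3609 genes with a mean above 8, the signal range of most of the list, were above 0 (median 0.037). After quantile normalisation 27 were above 0 (median 0.063), against 1941 of those 3609 genes (median 0.0077). None had an unadjusted p below 0.05, and by limma FH, fumarase, was closest at 0.29 ± 0.15, and SDHA, the flavoprotein of succinate dehydrogenase, was next at 0.24 ± 0.13, both just short of that level. The list's median was 0.17 on high-W arrays and 0.0082 on low-W arrays, against 0.068 and 0.0096 for the genes with a mean above 8. On high-W arrays 33 of the 36 were above 0 and on low-W arrays 18. Between the cool intervals 26 of the 36 were above 0 (median 0.055), against 2005 of the 3609 genes (median 0.014). As all members were read on the same arrays, they are not 36 separate observations. Fatty acid oxidation genes were split, with 14 of 24 above 0 (median 0.043). ACADS, the short-chain acyl-CoA dehydrogenase, differed by 0.35 ± 0.14, and PDK4, the kinase that restrains pyruvate dehydrogenase, by -0.48 ± 0.35. Glycolysis and glycogen genes, the main fuel pathway of this muscle, had a median of 0.0052 with 11 of 22 above 0.

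**Figure D4:**
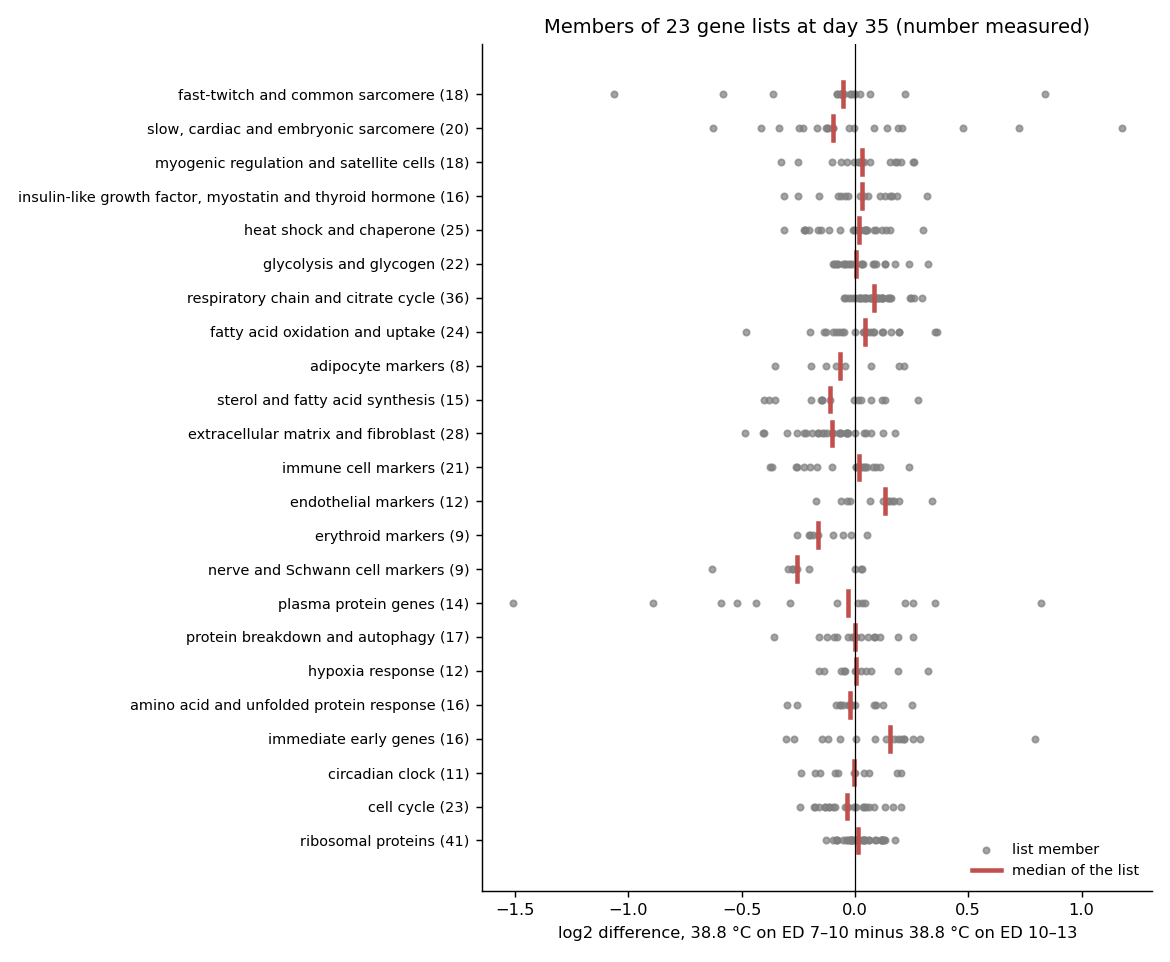
Log2 difference of each measured member (points) of 23 gene lists between the early and later warm interval (x axis), with the list median (bar) and the number measured. Medians lie between -0.25 and 0.15, and no member passed the test.

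Extracellular matrix genes leaned the other way. Of 28 measured matrix and fibroblast genes 6 were above 0 (median -0.10), none with an unadjusted p below 0.05. COL14A1, a fibril-associated collagen, differed by -0.48 ± 0.33, COL1A1, the main chain of type I collagen, by -0.26 ± 0.22, and TNC, the tendon and wound glycoprotein tenascin C, by -0.22 ± 0.52. The list's direction differed between the W classes, as did the sign of the median for most of the 23 lists. The classes also differ in place in the listing. On high-W arrays 27 of 28 members were below 0 (median -0.36), and on low-W arrays 24 of 28 were above 0 (median 0.11). Of all named genes 47.1% were above 0 on high-W and 52.3% on low-W arrays. For genes with a mean above 8 these shares were 65.2% and 53.4%. The members were read on the same few arrays, so they are not 28 separate observations. TNC was -1.32 ± 0.65 in the first and 0.87 ± 0.65 in the second, and THBS1, thrombospondin, -0.64 ± 0.44 and 0.72 ± 0.44. None of these passed the test of the difference between the classes, which called 0 of 20706 probe sets by limma (900, or 4.35%, at an unadjusted p below 0.05), and 3 of the 28 members had an unadjusted p below 0.05 in it.

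Immediate early genes, transcription factors switched on within minutes of a stimulus, had a median of 0.15 with 11 of 16 above 0. Their median was -0.19 on high-W and 0.34 on low-W arrays. At an unadjusted p below 0.05, 1 member was higher and 1 lower. NR4A3, an orphan nuclear receptor induced by exercise, spanned 7.4 to 10.42 against 6.91 to 9.27. It differed by 0.80 ± 0.37 (limma adjusted p = 0.999). EGR4 went the other way, by -0.31 ± 0.15 (limma adjusted p = 0.999). Both were picked for the smallest p of the list and do not stand for it. The median of the adipocyte markers likewise turned from -0.33 on high-W to 0.20 on low-W arrays. So did the medians of most of the 23 lists, among them slow sarcomere (-0.15 and 0.15) and immune genes (-0.19 and 0.11). The respiratory and nerve lists were among those that did not turn. The turn is therefore not particular to matrix, adipocyte and immediate early genes. Across all named genes the medians of the classes were -0.017 and 0.0085. By limma 1 probe set without a gene name was called within the high-W class (1614, or 7.79%, at an unadjusted p below 0.05) and 0 within the low-W class (517, or 2.5%). Of the 1614, 489 were higher and 1125 lower, and of the 517, 256 and 261. Array 11 is among the early high-W arrays, and a high-W contrast without it is not given here.

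**Figure D5:**
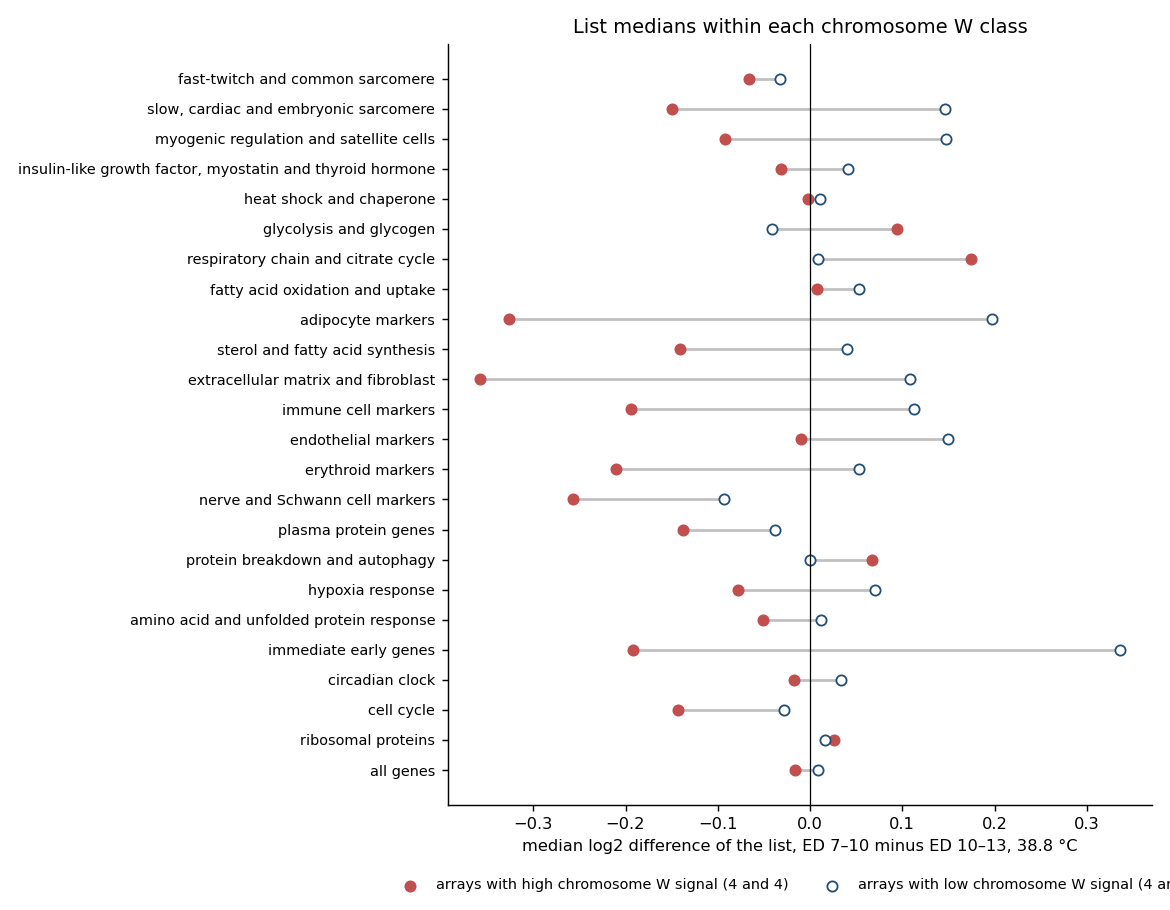
Median log2 difference of each list between the early and later warm interval (x axis), computed on the 4 and 4 arrays with high (filled) and the 4 and 4 with low (open) chromosome W signal. Matrix, adipocyte and immediate early medians are below 0 in the first class and above 0 in the second, as are those of most of the 23 lists.

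Markers of other cells of muscle were present at similar levels in both groups, and in a tissue sample fewer cells of a type and less RNA per cell cannot be told apart. The mean of 3 immune markers spanned 7.87 to 9.16 after early and 7.61 to 9.12 after later warming. The mean of 2 fibroblast markers, COL1A1 and PDGFRA, spanned 10.16 to 11.04 and 10.08 to 11.46, and that of 3 adipocyte markers 6.98 to 8.04 and 6.79 to 7.92. No marker of immune, endothelial, adipocyte, fibroblast, erythroid or nerve cells had an unadjusted p below 0.05 among the defining genes. In the wider lists, 8 of 12 endothelial genes were above 0 (median 0.13) and 6 of 12 hypoxia genes (median 0.0030). Of the immune genes 13 of 21 were above 0 (median 0.018, and -0.069 without array 11). The members named next were picked for the smallest p of these lists and do not stand for them. The endothelial transcription factor SOX18 differed by 0.34 ± 0.15 and the vessel growth factor VEGFA by 0.32 ± 0.13. CD79B, a B-cell receptor subunit, differed by -0.37 ± 0.12 and EGFL7, an endothelial secreted factor, by 0.19 ± 0.091, none of them called. Of 9 erythroid genes 1 was above 0 (median -0.16, and -0.074 without array 11), and of 9 nerve and Schwann cell genes 3 (median -0.25, and -0.097 without array 11). Both lists were dim, with means of 5.96 to 7.04 and 4.52 to 5.60 on the early arrays. All probe sets of 4 to 5, 5 to 6 and 6 to 7 had median differences of -0.13, -0.075 and -0.025. How much of the lean of these lists goes with signal level was not tested.

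Lipid synthesis and turnover lists had no called member. MVD and LSS, enzymes of sterol synthesis, differed in opposite directions, by 0.28 ± 0.089 and -0.40 ± 0.18, and LEPR, the leptin receptor, by -0.35 ± 0.14 with 6 of 8 early arrays below every later one. Of 17 protein breakdown and autophagy genes 9 were above 0 (median 9.3e-05). Picked from them for the smallest p, SQSTM1, an autophagy receptor, and CTSD, a lysosomal protease, differed by 0.26 ± 0.19 and 0.19 ± 0.13. Ribosomal protein genes had 25 of 41 above 0 (median 0.013), and cell cycle genes 9 of 23 (median -0.035). Of 11 circadian clock genes 5 were above 0 (median -0.0049). The 2 picked for the smallest p went opposite ways: PER2, a core clock repressor, differed by 0.20 ± 0.10 and ARNTL by -0.24.

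Set beside the controls they share, neither warm group had a called probe set by limma. Early warming minus control gave 1326 probe sets at an unadjusted p below 0.05 (6.4%), and later warming minus control gave 651 (3.14%). Of the 1326, 264 were higher and 1062 lower, and of the 651, 210 and 441. Without array 11 the counts were 1081 and 733. After quantile normalisation they were 1058 (546 higher, 512 lower) and 746 (378 higher, 368 lower). Against the 4 controls of the warm block alone there were again 0 calls, with 710 and 504 probe sets at an unadjusted p below 0.05. The same interval contrast in cool-incubated birds gave 0 calls and 417 probe sets (2.01%). The warm and cool interval effects did not differ for any probe set at an adjusted p below 0.05, with 786 (3.8%) at an unadjusted p below 0.05, so the warm contrast is not shown to differ from the cool one, which lies in the other listing block. At the end of treatment no probe set was called by limma in either embryo contrast of 38.8 °C against 37.8 °C, with 3000 (14.5%) at an unadjusted p below 0.05 on ED 10 and 1223 (5.91%) on ED 13. These counts depend on the fit: with each age fitted alone they were 1303 with 0 calls on ED 10 and 2557 with 1 call on ED 13.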

How the data were processed

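Biotin-labelled cRNA was hybridised to Affymetrix arrays, per the labels' protocols, and GCOS 1.1.1 is named per the submitters' processing notes. The authors deposited 1 normalised log2 value per probe set and array; the sources used here do not give their background correction, normalisation or summarisation, and the log base was read from the range of the values. The number of arrays limits the precision. After 98 control probe sets were set aside, 20706 were tested: 12300 had 1 gene symbol, 256 several and 8150 none, and 899 repeated the values of another probe set. Symbols came from the platform annotation, updated through GRCg7b. Each gene took its brightest probe set.

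One limma 3.58.1 fit (lmFit, eBayes, R 4.3.3) held a mean for each of the 5 day 35 groups over 40 arrays, with Benjamini-Hochberg adjustment over all probe sets at 0.05, 2-sided. A second fit held the 48 embryo arrays. As fewer than 10 probe sets passed, the 20 genes of smallest p were named, with the 2 of smallest p in each of 23 lists and genes chosen by name. The comparison and the lists were chosen with earlier results of these data known, and genes such as MYL3 and BF2 were described for their spread after their values were seen. The fit was also run on simulated data, whose settings and outcome are not given here, so nothing is drawn from that run. Arrays were put in W classes by a cut at 5 on the mean of chromosome W probe sets, added after seeing the data. Replicate numbers come from the labels, which describe individual tissue samples. Alternatives changed the arrays in the fit, normalisation, filter, floor, prior, weights and W terms.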

Additional observations from a re-analysis of the deposited data

Results flagged for a closer look

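Among 168 sets of 8 arrays, 1 for each named gene and warm group, 12 (7.14%) had a highest or lowest array far from the other 7, and chance alone gives about 1 in 20. Array 11 of the early group accounted for 6 of the 12: it was low for BBOF1 at 1.13 (next 2.37), for CTSEAL at 1.60 (next 3.46), for DDC at 3.46 (next 5.24) and for CDH19, a Schwann cell cadherin, at 0 (next 3.37), and high for CD79B at 6.46 (next 6.02) and for MYH15, a cardiac-type myosin heavy chain, at 9.26 (next 6.98). Array 13 was high for PPP1R3C, a glycogen-targeting phosphatase subunit, at 11.4 (next 10.9) and for AMBP, a liver plasma protein, at 5.15 (next 2.29). Array 3 was high for SLC38A3 at 8.49 (next 7.97), and array 67 was high for MYOD1 at 10.7 (next 10.0). In the later group, array 34 was low for CTSEAL at 3.75 (next 4.24) and high for MYH1B at 11.1 (next 9.45).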

How the results depend on the processing

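No paired analysis was possible because the early and later warm groups share no replicate number. The single call became 0 with only the 16 warm arrays, with values below 3 raised to 3, with early arrays 66 to 74 only and without array 11 after quantile normalisation. Filters on mean signal below 4, 5 or 6 also left 0 calls, but they remove BG8 (mean 3.25) before the test. The contrasts within the W classes came from 1 fit of all 40 day 35 arrays, with a mean for each group and class. Within the low-W class there were 0 calls. Within the high-W class there was 1 call, a probe set without a gene name, and BG8 did not pass. With early arrays 3 to 15 only there were 15 calls, 12 for early warming minus control and 1 for the difference between warm and cool interval effects. Leaving out 1 array gave 0 to 3 calls: 0 without 11, 13, 34, 39, 50, 53, 66 or 72, 2 without 67 and 3 without 74. For early warming minus control it gave 0 to 2, with 1 without 67 or 72 and 2 without 74. The other deposited table held the same values and was not run. The cut of 5, the early arrays by number and single arrays were planned, while the cuts of 4 and 6, the W classes and the controls split by listing block, which left 1 call, were added. Fitted alone, ED 13 had 1 call. Of 2802 values of 84 genes, 2711 kept sign and side of the threshold, 14 lost and 6 gained a call, and 71 turned sign, all uncalled. The causes were not tested.

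Signs turned after quantile normalisation for PAX7 (-0.010), MYOD1 (-0.0100), THRB (0.086) and RBM3 (-0.026), with the floor for AMBP (0.079), and with array weights for MYH1B (0.16), MYOD1 (-0.0027) and THRB (0.0077). With early arrays 3 to 15 only they turned for MYOD1 (-0.16), DIO2 (0.011), DIO3 (0.021), THRB (0.011) and HSPA8 (0.026), and with 66 to 74 only for GPAM (0.053), TAL1 (0.026), CDH19 (0.097), MYH1B (0.63), PDK4 (0.090) and RBM3 (-0.12). On high-W arrays they turned for ADM (-0.23), PAX7 (-0.0073), MYOD1 (-0.075), HSPA8 (0.10), HSPB1 (-0.0013) and RBM3 (-0.24), and on low-W arrays for HBZ (0.072), SLC7A5 (-0.023), MYH1B (1.06), IGF1 (0.0053), THRA (-0.10), THRB (0.046) and PDK4 (0.24). Without array 11 after quantile normalisation they turned for MYH1B (0.0012), PAX7 (-0.047), THRB (0.0092), HSPA8 (0.036) and RBM3 (-0.059). Leaving out 1 array, the ranges that crossed 0 were MYH1B -0.28 to 0.25, PAX7 -0.0084 to 0.083, RBM3 -0.077 to 0.14, HSPA8 -0.068 to 0.048, THRB -0.16 to 0.076, HSPB1 -0.0021 to 0.094, PVALB -0.71 to 0.041, MYOD1 -0.090 to 0.067 and PPARGC1A -0.14 to 0.00085.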

Other observations

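With the 4 early arrays numbered 3 to 15 set against all 8 later arrays, GLIS1, ADCY8 and CCDC146 passed limma's test, with log2 differences of -1.33 (adjusted p = 0.00649), -2.52 (0.0223) and -0.95 (0.0223). CCDC146 also passed without array 67 (-1.12, adjusted p = 0.0258) and, with TMEM200C (-0.56), without array 74 (both 0.0494). These 4 early arrays are all high-W while the later arrays are 4 high-W and 4 low-W. Array 11, which stood apart from the other 15 warm arrays, is among these 4. It was the lowest of them for GLIS1 (2.47) and ADCY8 (0), while array 15 was lowest for CCDC146 (2.27). The same contrast without array 11 is not given here. Against the 4 high-W later arrays none of the 3 genes passed: GLIS1 differed by -1.32 (adjusted p = 0.224), ADCY8 by -2.76 (0.193) and CCDC146 by -0.98 (0.460). Over 34 alternatives, no other of the 84 named genes passed apart from BG8.

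Among genes of mean signal above 7, whose median within-group SD was 0.24, the most variable genes of the warm groups apart from chromosome W genes and sarcomere genes included METTL21EP (3.42 to 9.19 early, 4.11 to 9.68 later), FHL2, a LIM-domain cofactor (5.22 to 9.94 and 5.01 to 9.10), and SNAI2, a mesenchymal repressor (6.72 to 10.15 and 6.55 to 9.86). SPP1, the matrix protein osteopontin, spanned 6.2 to 8.51 early and 6.09 to 10.24 later, and FMOD, the tendon proteoglycan fibromodulin, 7.38 to 8.80 and 5.39 to 10.02. None was called between the intervals.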
